A study of Mus musculus with 20 samples.

Results

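Voltage-gated sodium channel subunits were followed in nuclei of mouse spinal cord that had been sorted on NeuN, a nuclear protein of neurons. The 8 genes are the rows of the count table that carry the symbols Scn1a, Scn2a, Scn3a, Scn8a and Scn9a, which encode pore-forming alpha subunits, and Scn2b, Scn3b and Scn4b, which encode auxiliary beta subunits, and they are 8 of 43629 genes in the table. The mice were healthy or had experimental autoimmune encephalomyelitis (EAE), in which an immune attack on myelin inflames brain and spinal cord and which serves as an animal model of multiple sclerosis, and EAE mice were taken at day 15 after active immunization. NeuN-positive nuclei are mainly those of neurons and NeuN-negative nuclei those of glia and other cells, and the 4 groups (healthy NeuN-positive, EAE NeuN-positive, healthy NeuN-negative, EAE NeuN-negative) held 5 libraries each. The labels name no transgene, deletion or drug in any group, and they do not state the control treatment of the healthy mice. Nothing in the labels says that the libraries of a group came from separate mice, so the tests measure the spread between these libraries, which may be technical.

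A voltage-gated sodium channel is a single large alpha subunit that opens when the membrane depolarizes and carries the inward sodium current of the action potential, and beta subunits bind it and change its gating and its place in the membrane. In the mature central nervous system Scn8a (Nav1.6) is the main alpha subunit of axon initial segments and nodes of Ranvier, Scn1a (Nav1.1) is prominent in inhibitory and motor neurons, and Scn2a (Nav1.2) in unmyelinated axons. Scn3a (Nav1.3) is best known from the developing nervous system and from injured neurons, and Scn9a (Nav1.7) from sensory and sympathetic ganglia. Redistribution of sodium channels along demyelinated axons is a known feature of multiple sclerosis and of EAE.

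The alpha subunits are close copies of each other, which bears on how reads of one can be told from reads of another. One conserved part is the inactivation gate, the short loop between the third and the fourth domain that closes the open pore from inside. The 69 bases around it are given here for Scn8a, the alpha subunit with the highest level in these libraries, from the GENCODE M21 transcript (GRCm38, chr15:101032308-101033531, plus strand, a span that includes an intron), 5′ to 3′ along the coding strand. The 3 codons of the isoleucine, phenylalanine and methionine that plug the pore are in capitals, and the stretch lies in the coding sequence of exons 24 and 25 of 27.
Scn8a: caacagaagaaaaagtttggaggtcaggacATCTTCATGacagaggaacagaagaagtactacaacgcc
Across whole transcripts, the longest exact run shared by a pair of alpha subunits was 37 to 188 bases over the 10 pairs. The 18 pairs that include a beta subunit shared at most 27 bases. Neither the read length nor the treatment of reads that fit several genes is given in the sources. Reads from such runs could be split or dropped, so the levels of the alpha subunits are uncertain to that extent, while the beta subunits hold no such long runs.

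The genes lie on 3 chromosomes (GENCODE M21, GRCm38, by gene identifier). Scn3a (ENSMUSG00000057182, chr2:65457118-65567627, minus strand), Scn2a (ENSMUSG00000075318, chr2:65620771-65767447, plus), Scn1a (ENSMUSG00000064329, chr2:66270778-66440840, minus) and Scn9a (ENSMUSG00000075316, chr2:66480080-66634962, minus) lie along chromosome 2. Scn3b (ENSMUSG00000049281, chr9:40269217-40291618), Scn2b (ENSMUSG00000070304, chr9:45117782-45130070) and Scn4b (ENSMUSG00000046480, chr9:45138395-45154152) lie on the plus strand of chromosome 9, and Scn8a (ENSMUSG00000023033, chr15:100869858-101045938, plus) on chromosome 15. Scn9a shares 180 exonic bases with the antisense gene Gm13629. Since the use of strand in counting is not given, reads of that stretch cannot be assigned to one of them. The other overlapping genes of the members share no exonic bases with them.

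Total counts ran from 3149209 to 37689267 per library. Transcripts of the mitochondrial genome, a sign of cytoplasm among the nuclei, made up 0.197 to 3.0% of the NeuN-positive libraries of healthy mice and 1.08 to 9.35% of those of EAE mice, and 0.367 to 4.51% and 2.18 to 14.6% of the NeuN-negative libraries. The NeuN-positive libraries EAE 2, EAE 4 and healthy 3 were above 2%, and results are given without both libraries of these numbers where that matters. NeuN-negative libraries were thus left out by number and not by their own percentage. The kept NeuN-negative libraries EAE 5 (7.94%) and EAE 1 (4.87%) were above healthy 3 (4.51%), which was left out. As a check of the sort, 16 neuron markers were compared between the fractions (edgeR quasi-likelihood test, adjusted p under 0.05). In NeuN-positive nuclei 12 of 16 were higher in healthy mice and 15 of 16 in EAE mice, with 0 lower in either. Over all genes tested, 22.8% and 15.5% were called higher. Of 8 oligodendrocyte markers, 6 were lower in NeuN-positive nuclei of healthy mice and 5 in EAE mice, with 0 higher. Over all genes tested, 23% and 14.8% were called lower. Summed neuron marker levels in NeuN-positive libraries were 43856 to 67876 CPM (counts scaled to library size by the TMM method) in healthy mice. In EAE mice they were 39151 to 70519 CPM. In the same libraries the 8 oligodendrocyte markers still summed to 3862 to 44177 CPM in healthy and 11138 to 92489 CPM in EAE mice. Between healthy and EAE NeuN-positive libraries 0 of the 16 neuron markers were called, where 10.2% of all 16675 genes tested were. A list of 16 is too short for 0 calls to show unchanged levels.

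The 8 subunits were higher in NeuN-positive than in NeuN-negative nuclei of healthy mice, where 22.8% of 17134 genes tested were called higher (45.8% in either direction), and all 8 again in EAE mice, where 15.5% of 17982 were (30.3% in either direction; edgeR, adjusted p of at most 0.00718 and 0.0184). The median log2 fold change of the 8 was 2.52 in healthy and 2.48 in EAE mice, against -0.01 and -0.16 over all genes tested. In healthy mice the differences ran from 1.51 ± 0.39 (log2, ± standard error) for Scn4b to 3.72 ± 0.39 for Scn9a, and in EAE mice from 1.3 ± 0.39 for Scn3b to 3.32 ± 0.39 for Scn8a. The libraries of the 2 fractions did not overlap for 7 of the 8 in healthy mice, Scn4b being the exception, and for all 8 in EAE mice. The share of all genes without overlap was not counted, here or in the EAE comparisons, so these counts have no background. Of the other sodium channel subunits, 5 of 7 tested were higher and 0 lower in healthy mice, and 4 of 9 were higher and 1 lower in EAE mice, with median log2 fold changes of 1.91 and 0.17. These medians cover different sets of genes, 7 that passed the count filter in healthy and 9 in EAE mice. They cannot be set against each other. The 8 members were also called higher under each of the 18 alternatives tried in each condition. In bulk nuclei a lower level can mean fewer nuclei of a type or less RNA in each, and these cannot be told apart here.

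**Figure D1:**
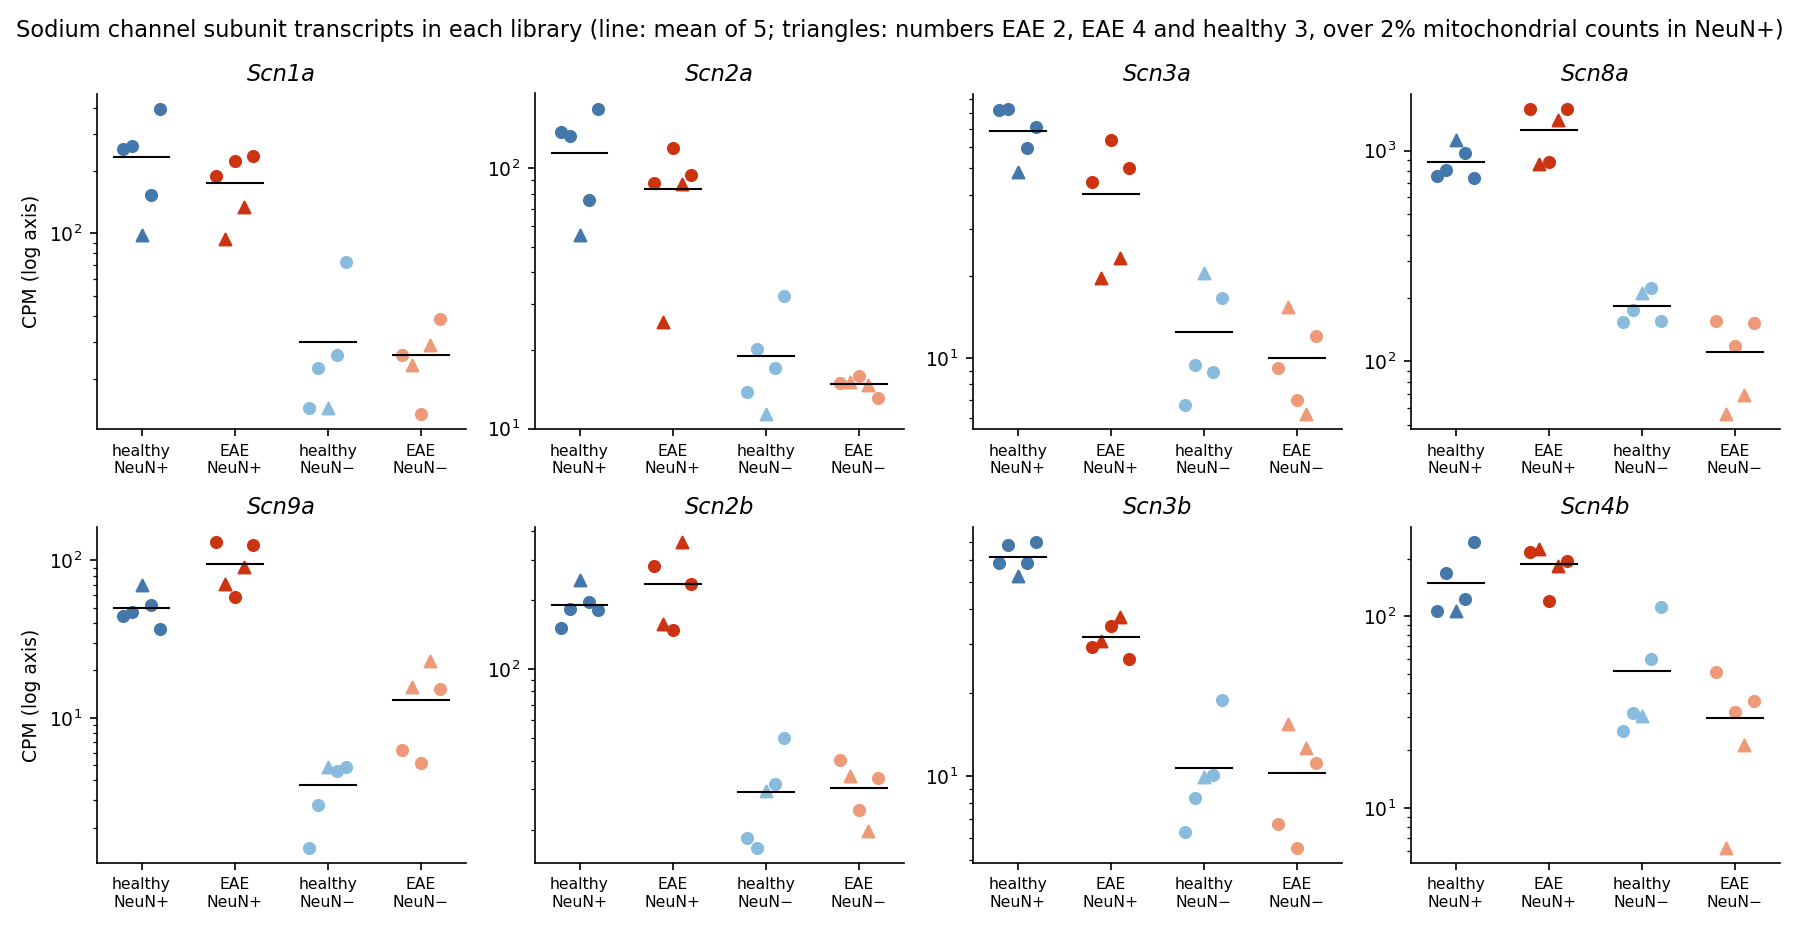
CPM of each subunit (log axis) in the 20 libraries, with 5 points per group and a line at the group mean; triangles mark the numbers EAE 2, EAE 4 and healthy 3. Within each condition NeuN-positive libraries lie above NeuN-negative ones for each gene apart from an overlap in healthy Scn4b, Scn3b of EAE NeuN-positive nuclei (26.4 to 37.4 CPM) lies below that of healthy ones (53.0 to 69.8 CPM), and Scn9a of EAE NeuN-negative nuclei (5.19 to 22.8 CPM) above that of healthy ones (1.5 to 4.85 CPM).

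Levels of different genes were compared per kilobase of exonic sequence. In healthy NeuN-positive nuclei Scn8a led at 56.0 ± 10.4 CPM per kb (SD, n = 5), followed by Scn2b (41.0 ± 7.37), Scn4b (30.05 ± 11.6), Scn1a (20.8 ± 10.3), Scn3b (11.3 ± 1.3), Scn2a (8.98 ± 3.71), Scn3a (5.51 ± 1.19) and Scn9a (3.92 ± 0.97). The ranges of all neighbours in this order overlapped. In EAE NeuN-positive nuclei the first 4 kept their places, at 79.7 ± 22.8, 50.7 ± 18.8, 37.5 ± 8.29 and 15.7 ± 5.37 CPM per kb. Behind them came Scn9a (7.44 ± 2.51), Scn2a (6.53 ± 2.73), Scn3b (5.80 ± 0.80) and Scn3a (3.24 ± 1.49). There the only neighbours with separate ranges were Scn4b and Scn1a. Scn9a was thus the last of the 8 by mean level in healthy and the fifth in EAE NeuN-positive nuclei, and Scn3b went from the fifth to the seventh place.

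In NeuN-negative nuclei Scn8a was first as well, at 11.7 ± 2.01 CPM per kb in healthy and 7.01 ± 2.91 in EAE nuclei, with Scn4b (10.4 ± 7.31 and 5.91 ± 3.39) and Scn2b (6.27 ± 2.87 and 6.53 ± 1.77) next to it. Scn9a was last in healthy NeuN-negative nuclei at 0.29 ± 0.12 CPM per kb, with a range separate from that of Scn3a before it (1.0 ± 0.47). In EAE it stood at 1.02 ± 0.57, beside Scn2a (1.16 ± 0.08) and Scn3a (0.80 ± 0.30), with overlapping ranges.

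EAE and healthy NeuN-positive nuclei were compared next, as bulk libraries that also held transcripts of other cells. Of the 8 subunits, 1 was called higher (Scn9a) and 1 lower (Scn3b), that is 2 of 8 where 10.2% of all 16675 genes tested were called (6.55% higher, 3.68% lower). The median log2 difference of the 8 was 0.07, against -0.03 over all genes tested. The alpha subunits split by sign, with Scn8a and Scn9a above 0 and Scn1a, Scn2a and Scn3a below it.

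Scn9a, an alpha subunit known from peripheral ganglia, stood at 44.5, 46.9, 70.0, 52.0 and 36.8 CPM in healthy NeuN-positive libraries 1 to 5. In EAE it stood at 130, 70.6, 58.2, 90.7 and 125 CPM. EAE libraries 1, 4 and 5 and, narrowly, 2 lay above every healthy library, and EAE 3 fell among the healthy ones, so the groups overlapped. The difference was 1.03 ± 0.29 on the log2 scale (edgeR, adjusted p = 0.0382). That call was close to the threshold and was lost in 11 of 18 alternatives, among them 8 of the 10 fits that left out 1 library (adjusted p up to 0.101). It was also lost with no count filter (adjusted p = 0.0525) and in a fit on all 20 libraries (adjusted p = 0.124), while the value itself stayed between 0.90 and 1.41.

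The libraries whose omission ended the call were EAE 1, 2, 4 and 5 and healthy 1, 2, 4 and 5. Without EAE 3 Scn9a stood at 1.18 (adjusted p = 0.00863), without healthy 3 at 1.22 (adjusted p = 0.0127), and without EAE 2, EAE 4 and healthy 3 at 1.37 ± 0.30 (adjusted p = 0.0204). Counts assigned to the antisense gene Gm13629, not scaled to depth, ran from 0 to 444 in EAE and from 58 to 777 in healthy NeuN-positive libraries. The part of that overlap in the Scn9a counts was not tested.

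Scn3b, a beta subunit that binds the alpha subunit without a covalent bond and shifts its inactivation, was the member whose NeuN-positive groups separated. Its healthy libraries held 59.0, 68.2, 53.0, 58.6 and 69.8 CPM and its EAE libraries 29.2, 30.7, 34.7, 37.4 and 26.4 CPM. The highest EAE library was below the lowest healthy one. How many of all genes separated in this way was not counted. Scn3b fell by 0.84 on the log2 scale (standard error 0.19, edgeR adjusted p = 0.0152). The call was lost in 2 of 18 alternatives, the fit on all 20 libraries (adjusted p = 0.065) and the fit without healthy NeuN-positive 2 (adjusted p = 0.0506), at values of -0.93 and -0.83. Without EAE 2, EAE 4 and healthy 3 it stood at -0.96 ± 0.18 (adjusted p = 0.00796).

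**Figure D2:**
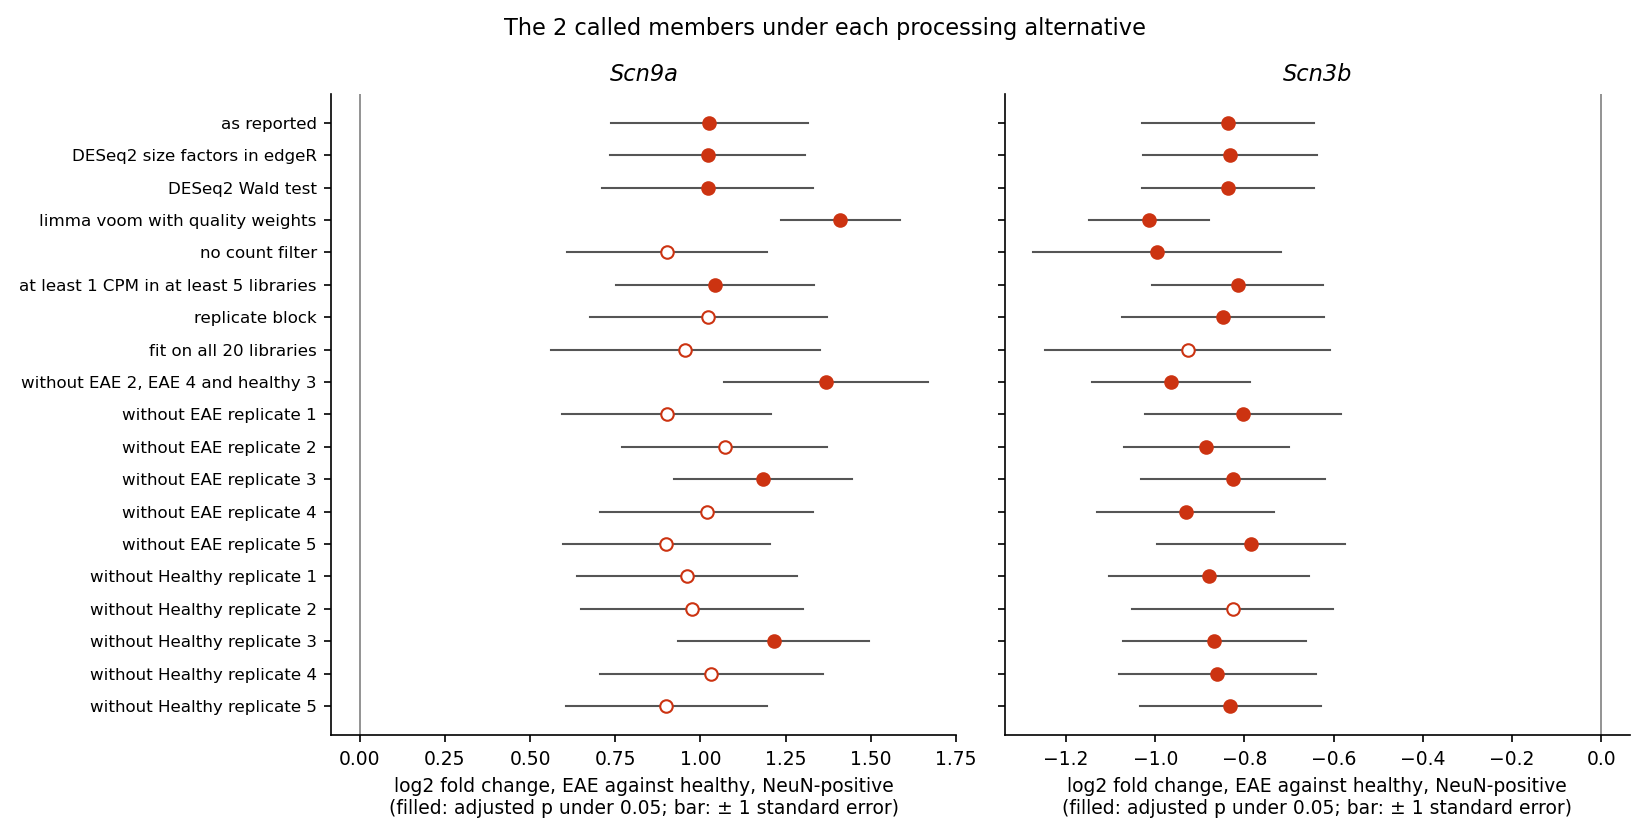
Log2 difference of Scn9a and Scn3b between EAE and healthy NeuN-positive libraries as reported and under each of 18 alternatives, with ± 1 standard error; filled points have an adjusted p under 0.05. Scn9a stayed between 0.90 and 1.41 with 7 of 18 alternatives called, and Scn3b between -1.01 and -0.78 with 16 of 18 called.

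Scn8a, the main alpha subunit of nodes and initial segments, held 756, 813, 1123, 980 and 742 CPM in healthy and 1570, 864, 879, 1392 and 1582 CPM in EAE NeuN-positive libraries. EAE 1, 4 and 5 were above all healthy libraries, and EAE 2 and 3 were among them. The difference of 0.61 ± 0.27 did not pass (edgeR, adjusted p = 0.150). Of the 18 alternatives only limma voom with library quality weights called it, at 0.95 (adjusted p = 0.000154). In this comparison voom called 3820 of the 16675 genes tested higher and 3884 lower. That share applies to its calls of Scn3a, Scn2b and Scn4b as well.

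Scn3a, the alpha subunit linked to development and injury, was lower by mean in EAE. Healthy NeuN-positive libraries held 81.8, 82.9, 48.4, 59.4 and 70.7 CPM and EAE ones 44.7, 19.7, 63.7, 23.3 and 50.2 CPM. EAE 1, 2 and 4 were below every healthy library, and EAE 3 and 5 were not. The difference was -0.68 ± 0.27 (edgeR, adjusted p = 0.120), and without EAE 2, EAE 4 and healthy 3, whose libraries were the lowest of their groups, it was -0.35 ± 0.18 (adjusted p = 0.229). Voom called it lower, at -0.71 (adjusted p = 0.00187).

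Scn1a and Scn2a were not called in NeuN-positive nuclei. Scn1a ranged from 98.3 to 396 CPM (median 253) in healthy and from 94.3 to 236 CPM (median 189) in EAE NeuN-positive libraries, with a difference of -0.28 ± 0.31 (edgeR, adjusted p = 0.577). Its 3 lowest NeuN-positive libraries were EAE 2 (94.3 CPM), healthy 3 (98.3 CPM) and EAE 4 (134 CPM), the 3 with over 2% mitochondrial counts. Scn2a ranged from 55.5 to 169 CPM (median 133) in healthy and from 25.8 to 120 CPM (median 88.2) in EAE libraries, a difference of -0.36 ± 0.33 (adjusted p = 0.501).

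The remaining beta subunits, which are both linked to the alpha subunit by a disulfide bond, were not called either. Scn2b ranged from 151 to 244 CPM in healthy and from 148 to 357 CPM in EAE NeuN-positive libraries (0.42 ± 0.28, edgeR adjusted p = 0.341). Scn4b, which can supply the blocking particle of resurgent sodium current, ranged from 107 to 243 CPM and from 120 to 225 CPM (0.48 ± 0.28, adjusted p = 0.261). Voom called both higher, at 0.65 (adjusted p = 0.00518) and 0.56 (adjusted p = 0.0324).

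**Figure D3:**
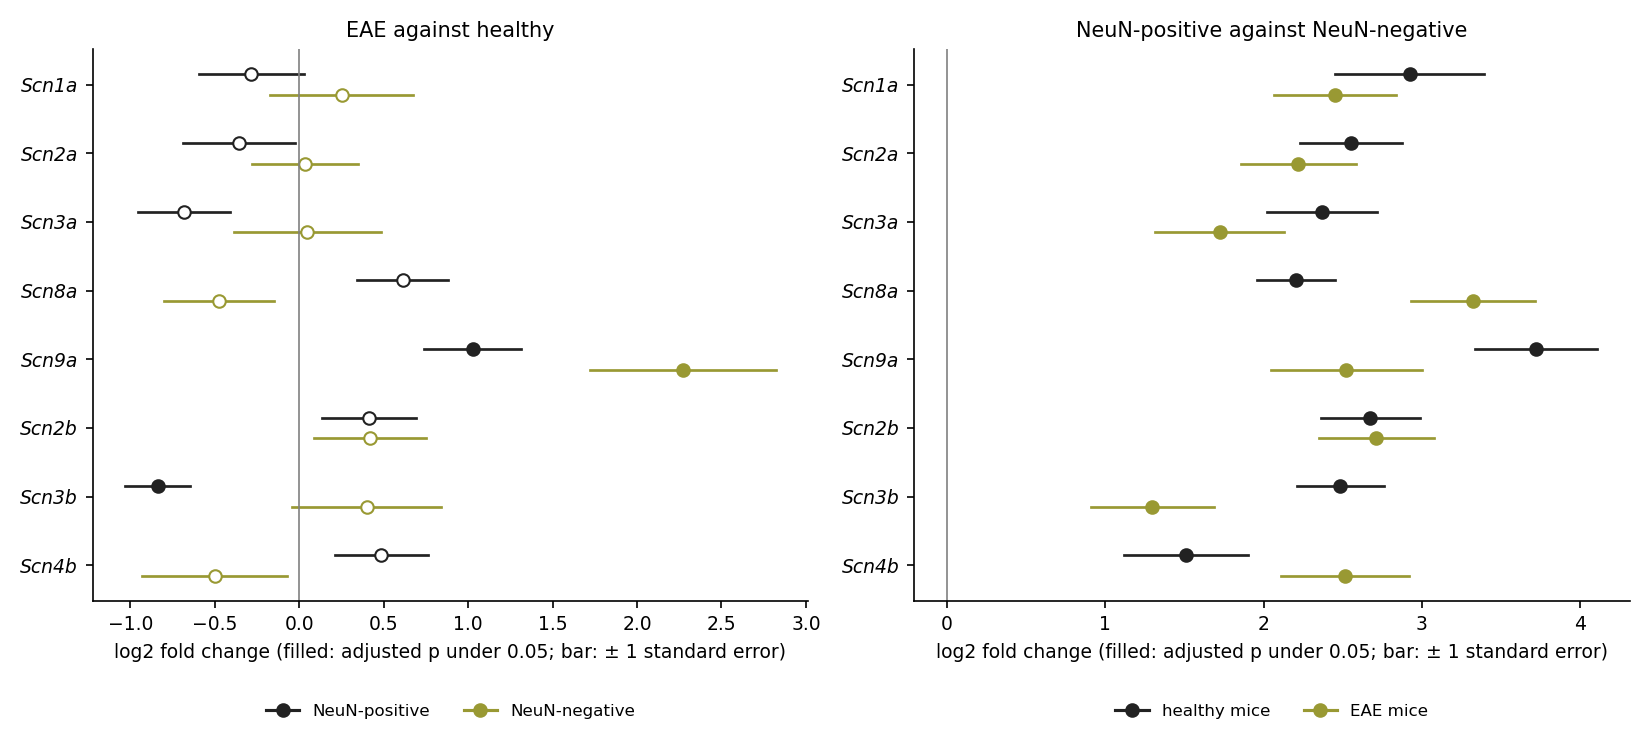
Log2 fold changes of the 8 subunits with ± 1 standard error, EAE against healthy within each fraction on the left and NeuN-positive against NeuN-negative within each condition on the right; filled points have an adjusted p under 0.05. On the left Scn9a is above 0 in both fractions (1.03 and 2.27) and Scn3b is below 0 in NeuN-positive nuclei (-0.84), and on the right all points are filled and above 0.

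Each subunit was also set against the mean log2 level of the 16 neuron markers of its own NeuN-positive library, to see its level relative to neuronal transcripts in general. The ratio of Scn3b was lower in EAE by a log2 value of -0.95, from -3.21 ± 0.13 (SD, n = 5) to -4.17 ± 0.35, without overlap (exact permutation test, two-sided, p = 0.00794, the smallest that 5 against 5 libraries allow, adjusted p over the 8 subunits 0.0635). The ratio of Scn9a was higher by 0.90, from -3.54 ± 0.40 to -2.64 ± 0.35 (p = 0.0159 in a two-sided exact permutation test, adjusted p = 0.0635). None of the 8 ratios passed adjustment, and a single ratio could not have done so with 5 against 5 libraries. Against Rbfox3 alone, the gene of the NeuN protein, the Scn3b difference was only -0.19 and that of Scn9a 1.66. Rbfox3 itself stood at 329 ± 35.9 CPM in healthy and 203 ± 73.2 CPM in EAE NeuN-positive libraries.

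Shares within the 5 alpha subunits do not depend on library size. In NeuN-positive libraries Scn8a supplied 65.5% ± 11.5 (SD, n = 5) of alpha subunit counts in healthy mice and 76.0% ± 6.23 in EAE (p = 0.0952 in a two-sided exact permutation test, adjusted p = 0.190). Scn9a supplied 3.71% ± 0.88 and 5.72% ± 0.93 (exact permutation test, p = 0.0159, adjusted p = 0.0794), and Scn3a 5.12% ± 1.22 and 2.51% ± 1.31 (exact permutation test, p = 0.0238, adjusted p = 0.0794). Scn1a stood at 17.2% ± 8.13 and 10.8% ± 3.50 and Scn2a at 8.50% ± 3.46 and 5.05% ± 2.39 (exact permutation tests, adjusted p = 0.212 and 0.190). None of the 10 shares tested over both fractions passed adjustment, which a single share could not do even with separate groups (smallest exact p = 0.00794, adjusted 0.0794). Healthy libraries 1, 2 and 5 had the most Scn1a (19.9, 19.5 and 28%) and the least Scn8a (59.4, 60.8 and 52.4%) among NeuN-positive libraries.

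**Figure D4:**
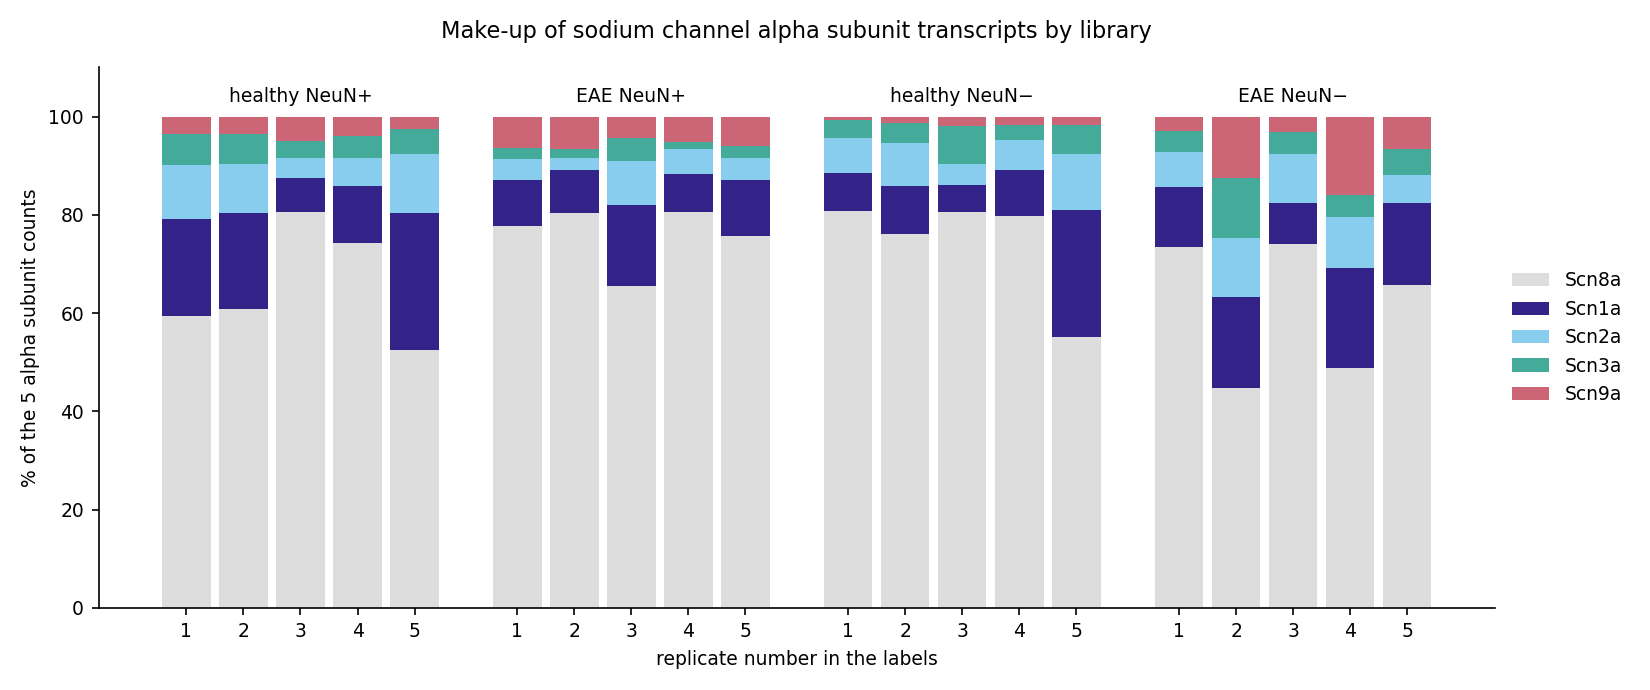
Percent of the counts of the 5 alpha subunits that each supplied, 1 bar per library, grouped by condition and NeuN fraction. Scn8a is the largest part of each bar (44.7 to 80.9%), and the Scn9a part at the top is widest in EAE NeuN-negative libraries 2 and 4 (12.5 and 16%).

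The same comparison in NeuN-negative nuclei gave 1 subunit called higher, Scn9a, and 0 lower, where 27.7% of all 17604 genes tested were called (15.1% higher, 12.6% lower). A share of 1 in 8 is thus below that of all genes. The median log2 difference of the 8 was 0.15, against 0.05 over all genes. Without the threshold, at an unadjusted p under 0.05, edgeR found no further member, and voom with quality weights called Scn2b higher as well (1.0, adjusted p = 0.00533). In this comparison voom called 4520 of the 17604 genes tested higher and 4552 lower.

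Scn9a held 1.5, 2.79, 4.85, 4.61 and 4.84 CPM in healthy NeuN-negative libraries and 6.25, 15.7, 5.19, 22.8 and 15.3 CPM in EAE ones, from 30 to 179 and 58 to 194 counts. Each EAE library was above each healthy one, EAE 1 and 3 by little and EAE 2, 4 and 5 by much. The difference was 2.27 ± 0.55 (edgeR, adjusted p = 0.00695), and it was called in all 18 alternatives, with values from 1.71 to 2.45. The value of 1.71 ± 0.53 (adjusted p = 0.0276) came from leaving out EAE 2, EAE 4 and healthy 3, numbers chosen by their NeuN-positive libraries. Scn9a supplied 1.44% ± 0.44 of alpha subunit counts in healthy and 8.26% ± 5.80 in EAE NeuN-negative libraries, without overlap (p = 0.00794 in a two-sided exact permutation test, adjusted p = 0.0794).

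Other quantities were looked at beside Scn9a in these libraries. The summed level of 8 sensory ganglion markers was 9.06 to 17.1 CPM in healthy and 8.86 to 63.4 CPM in EAE NeuN-negative libraries, so the ranges overlapped. Of the 6 tested, 2 were called higher (Scn11a and Trpv1), where 15.1% of all genes tested were, and 0 of the 8 were at 0 in the group. Scn11a was at most 0.848 CPM in healthy libraries. It passed the count filter only through the EAE libraries, so its call was partly set by the filter. Calca of the same list went the other way by mean, from 5.57 CPM in healthy to 1.90 CPM in EAE libraries. Genes of olfactory and vomeronasal receptors, which spinal cord cells are not known to use, gave a background of 0.00684 to 0.0593 CPM per kb in healthy and 0.0333, 0.404, 0.0338, 0.283 and 0.0823 CPM per kb in EAE NeuN-negative libraries 1 to 5, over 1311 genes. EAE 2, 4 and 5 were highest in this background as in Scn9a. Scn9a itself was 6.40 to 55.4 times this level in healthy and 3.05 to 14.7 times in EAE NeuN-negative libraries, and 66.1 to 612 times in NeuN-positive ones. The member nearest to this background was Scn3a, at 1.76 times it in EAE NeuN-negative 4. The summed level of the 16 neuron markers was 2760 to 6608 CPM in healthy and 1471 to 5544 CPM in EAE NeuN-negative libraries, with 0 called higher and 1 lower. The part of these in the Scn9a difference was not tested.

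No other alpha subunit of NeuN-negative nuclei was called by edgeR. Scn8a ranged from 155 to 223 CPM in healthy and from 56.3 to 155 CPM in EAE libraries (-0.47 ± 0.33, edgeR adjusted p = 0.283), with EAE 2 (56.3 CPM) and EAE 4 (69.5 CPM) lowest and 4 of the 5 EAE libraries below every healthy one. The difference without EAE 2, EAE 4 and healthy 3 was -0.04 ± 0.26. Scn1a ranged from 14.4 to 72.8 CPM and from 13.5 to 38.9 CPM (0.25 ± 0.42), Scn2a from 11.4 to 32.4 CPM and from 13.2 to 15.9 CPM (0.04 ± 0.31), and Scn3a from 6.74 to 20.6 CPM and from 6.23 to 15.4 CPM (0.05 ± 0.44). The differences of these last 3 were smaller than their errors, and their signs changed between settings.

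The beta subunits of NeuN-negative nuclei were not called by edgeR. Scn2b ranged from 16.7 to 50.1 CPM in healthy and from 19.7 to 40.1 CPM in EAE libraries (0.42 ± 0.33), and Scn3b from 6.30 to 18.8 CPM and from 5.53 to 15.4 CPM (0.40 ± 0.44, adjusted p = 0.518). By mean CPM, scaled over all 20 libraries, Scn3b was slightly lower in EAE (10.3) than in healthy libraries (10.7). Scn4b ranged from 25.1 to 112 CPM and from 6.23 to 51.4 CPM (-0.50 ± 0.43, adjusted p = 0.397). For Scn4b, EAE 2 with 23 counts was the lowest library and healthy 5 with 4146 the highest.

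Markers of immune cells rose in both fractions of EAE mice. In NeuN-positive libraries the 8 monocyte and macrophage markers summed to 21.3 to 50.6 CPM in healthy and 324 to 1776 CPM in EAE mice (8 of 8 higher), the 8 T cell markers to 5.40 to 11.4 and 24.5 to 62.2 CPM (6 of 6 tested higher), and the 6 neutrophil markers to 1.69 to 5.94 and 15.2 to 115 CPM (4 of 4 tested higher, 1 of 6 at 0 in the healthy group). Oligodendrocyte markers, 8 in all, ran from 3862 to 44177 CPM in healthy and from 11138 to 92489 CPM in EAE NeuN-positive libraries, with 1 called higher. In NeuN-negative libraries monocyte markers ran from 50.0 to 99 and from 649 to 2776 CPM and T cell markers from 3.52 to 10.4 and from 79.7 to 250 CPM, with 8 of 8 higher in each list. Over all genes tested, 6.55% were called higher in NeuN-positive and 15.1% in NeuN-negative nuclei. In the healthy libraries alone only 4 of the 8 monocyte and macrophage, 2 of the 8 T cell and 3 of the 6 neutrophil markers passed the count filter. The others entered with the EAE libraries, so their calls were partly set by the filter. The part of these cell markers in the values of the sodium channel genes was not tested.

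Whether the EAE difference itself differed between the fractions was tested in a single fit of all 20 libraries. None of the 8 subunits was called by edgeR, where 2.56% of 20444 genes were (1.74% higher in the NeuN-positive fraction, 0.822% lower), and 2 had an unadjusted p under 0.05. These were Scn8a, whose difference was more positive in NeuN-positive nuclei by 1.21 ± 0.45 (adjusted p = 0.140), and Scn3b, at -1.0 ± 0.46 (adjusted p = 0.236). Voom called both, at 1.22 (adjusted p = 0.00369) and -1.32 (adjusted p = 0.00788), and with the replicate number as a block edgeR called Scn8a (1.24, adjusted p = 0.0156). Both settings called more genes in general. Over all genes voom called 3059 higher and 1867 lower and the replicate block 1992 and 500, against 356 and 168 as reported. Scn4b stood at 1.11 ± 0.58 and Scn9a at -1.01 ± 0.57 (adjusted p = 0.312 and 0.352). The larger Scn9a value in NeuN-negative nuclei was therefore not shown to differ from that in NeuN-positive nuclei, and without EAE 2, EAE 4 and healthy 3 the difference was -0.37 ± 0.61.

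Around the channels, 43 genes of related function were followed in 5 lists: other sodium channel subunits, FGF homologous factors that bind the channel tail, anchors of the initial segment and node, channel modulators, and proteins that extrude sodium. In NeuN-positive nuclei 1 of 41 tested was higher and 2 lower in EAE, where 6.55% of all genes tested were called higher and 3.68% lower. S100a10, an annexin partner that helps to bring a sensory neuron sodium channel to the membrane, went from 14.6 ± 5.31 to 34.5 ± 13.5 CPM (SD, n = 5; log2 1.37 ± 0.37, edgeR adjusted p = 0.0309). Calm3, a calmodulin gene, fell by 0.94 (adjusted p = 0.0221) and Slc8a2, a sodium and calcium exchanger, by 0.81 (adjusted p = 0.0344). None of the 8 other sodium channel subunits, 4 FGF homologous factors or 10 anchors tested were called in these nuclei. The median of the 41 was -0.22, against -0.03 over all genes.

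In NeuN-negative nuclei 3 of 41 related genes tested were higher in EAE and 8 lower, where 15.1% of all genes tested were called higher and 12.6% lower. The share of related genes called in either direction was thus near that of all genes (27.7%). Scn11a, a channel of sensory ganglion neurons, was at 0.484 ± 0.313 CPM (3 to 14 counts) in healthy libraries. In EAE libraries it was at 5.65 ± 6.70 CPM (12 to 64 counts; 4.08 ± 1.01, edgeR adjusted p = 0.00769). Since it passed the count filter only through the EAE libraries, this call was partly set by the filter. The receptor background was 0.00684 to 0.0593 CPM per kb in healthy and 0.0333 to 0.404 in EAE libraries. Its part in the Scn11a value was not tested. S100a10 rose here too (1.93 ± 0.28, adjusted p = 0.000147).

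The 8 that were lower in NeuN-negative nuclei included the node and paranode genes Nfasc and Cntn2. Nfasc fell by 2.06 from 2565 ± 513 to 524 ± 291 CPM, and Cntn2 fell by 2.06 from 1885 ± 438 to 383 ± 304 CPM (adjusted p = 0.00565 and 0.0074). Ank2, Fgf11, the ubiquitin ligase gene Nedd4l, Dpysl2, the sodium pump subunit gene Atp1b2 and the exchanger Slc8a3 were lower by log2 values of -1.49, -1.13, -0.80, -1.10, -1.36 and -0.86. Oligodendrocyte markers were also lower there for 4 of 8 and those of oligodendrocyte precursors for 5 of 7, with sums of 38932 to 65665 CPM in healthy and 32425 to 94481 CPM in EAE libraries for the first list and of 807 to 1500 and 149 to 652 CPM for the second. Within the oligodendrocyte list Mobp and Mbp went the other way by mean CPM, with 0 of the list called higher. Mobp stood at 8328 in healthy and 21559 in EAE libraries, and Mbp at 18261 and 29604. The part of these markers in the lower node genes was not tested. In the test between fractions the EAE difference was more positive in NeuN-positive than in NeuN-negative nuclei for 2 of 42 related genes tested and more negative for 1, where 2.56% of all genes were called. The 2 were Nfasc (2.15, edgeR adjusted p = 0.0204) and Cntn2 (2.67, adjusted p = 0.0121).

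The genes whose log2 CPM most resembled each subunit over the 10 NeuN-positive libraries were looked up among 10076 genes, as a description. For Scn9a they were Tor1b, Baz1b and Onecut2 (Pearson r of 0.98, 0.96 and 0.96), for Scn3b Nectin1, Ptprt and Sox12 (0.96, 0.95 and 0.95), and for Scn8a Trub2, Stmn2 and Camsap1 (0.98, 0.97 and 0.96). For Scn1a they were Cfap36, Slc35e2 and Rbmx, for Scn2a Aldh1l2, Ufl1 and Bbs5, and for Scn3a Zc3h18, Anapc1 and Trim28 (0.99 to 1.0). Scn2b and Scn4b were followed less closely, by Vsig10, Ncdn and Lrrtm1 (0.95, 0.93 and 0.92) and by Paics, Cln8 and Plcxd2 (0.94, 0.94 and 0.93). The points share their libraries, condition and depth, and the genes were the highest of many.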

How the data were processed

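Per the labels' protocols, RNA of sorted nuclei was isolated with a Qiagen kit, and TruSeq libraries were made after poly(A) selection. The authors deposited 1 table of whole-number read counts, with Ensembl genes in rows and the 20 libraries in columns and without normalization. STAR 2.4 and DESeq2 are named as tools and GRCm39 and mm10 as builds, with no role given, per the submitters' processing notes. None of counting tool, annotation, strand setting and read length is given in the sources used here.

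Groups came from the library titles. Each comparison was fitted on its own 10 libraries with edgeR 4.0.16 (R 4.3.3): filterByExpr, TMM, quasi-likelihood test with robust dispersion, Benjamini-Hochberg adjustment over all genes tested, call at an adjusted p under 0.05. The difference between fractions used all 20 libraries. All 8 members passed the count filter in each comparison. CPM used TMM over the 20 libraries, and log2 CPM a prior count of 0.5. TMM of the fits used only the libraries of each comparison. Log2 differences and mean CPM can therefore differ, in NeuN-negative nuclei even in sign. Shares and ratios were compared by exact permutation tests over 252 splits. Replicate pairs differed beyond sampling noise (chi-square per gene 11.1 to 393). The edgeR script was tested on simulated data.

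Alternatives were edgeR with the size factors of DESeq2 1.42.0, that tool's own Wald test, limma 3.58.1 voom with quality weights, no count filter, a minimum of 1 CPM in 5 or more libraries, a replicate block, 1 joint fit of the 20 libraries, and leaving out each library. Shares were also computed per length, and ratios with the median of the markers, Rbfox3 alone or a prior count of 2. Added after seeing the data were fits without the numbers EAE 2, EAE 4 and healthy 3, and the receptor background. The members and lists were chosen with earlier results of these data known. All members are named, and in each related list up to 2 called genes each way per EAE comparison by smallest p. A result that this rule would name is not reported here. Ank2, Trpv1, Rbfox3, Calca, Mobp and Mbp, which the rule does not name, were named after their values were seen. Of 135 list genes, 134 were in the table. Sequences and positions are from GENCODE M21 (GRCm38).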

Additional observations from a re-analysis of the deposited data

Results flagged for a closer look

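In 52 groups of 5 values, the highest or lowest library was checked for a gap to its neighbour that is large against the range of the group, and chance marks about 1 group in 20. In healthy NeuN-negative nuclei, library 5 stood apart for Scn1a at 72.8 CPM, where the next library held 26.1 CPM. The same library had the highest Scn1a share of alpha subunit counts, 25.9% against 9.79% in the next. It also had the lowest Scn8a share, 55.0% against 76.1%. In EAE NeuN-negative nuclei, library 2, with the smallest total count of all libraries (3149209), had the highest Scn3a share at 12.3% against 5.21% in the next. These values have no further test.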

How the results depend on the processing

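The sort result did not depend on the settings: all 8 members were called higher in NeuN-positive nuclei of healthy and of EAE mice in each of 18 alternatives. In NeuN-positive nuclei the count of members called higher in EAE (1 as reported) was 0 with no count filter, 0 with the replicate block, 0 in the fit on all 20 libraries, 4 with voom and 0 to 1 over the fits without 1 library. The count called lower (1) was 0 in the fit on all 20 libraries, 2 with voom and 0 to 1 without 1 library. In NeuN-negative nuclei the count called higher (1) was 2 with voom, and 1 in every fit without 1 library. Between the fractions (0 and 0 as reported) voom called 1 higher and 1 lower and the replicate block 1 higher, Scn8a (1.24, adjusted p = 0.0156). None of the 8 ratios to neuron markers passed as reported, 3 did with the median of the markers as reference, and 0 to 4 did without 1 library (4 without EAE NeuN-positive 3). The cause was not tested. Over all genes, voom called 3820 higher and 3884 lower in NeuN-positive nuclei, against 1092 and 613. In NeuN-negative nuclei voom called 4520 and 4552, against 2650 and 2220. Between the fractions voom called 3059 and 1867 and the replicate block 1992 and 500, against 356 and 168. Related genes called in NeuN-positive nuclei numbered 0 to 5 higher (1 as reported) and 0 to 12 lower (2), and in NeuN-negative nuclei 2 to 6 higher (3) and 4 to 13 lower (8).

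Signs changed only for values that did not pass the test as reported. In NeuN-negative nuclei Scn2a turned to -0.036 with voom, Scn4b to 0.33 with voom, and with no filter Scn1a stood at -0.24, Scn2a at -0.40, Scn3a at -0.36 and Scn3b at -0.11. In the fit on all 20 libraries Scn1a was at -0.058, Scn2a at -0.25 and Scn3a at -0.22, and without EAE 2, EAE 4 and healthy 3 Scn1a was at -0.051, Scn2a at -0.23 and Scn3b at -0.17. Without 1 library these ran from -0.014 to 0.69 for Scn1a, from -0.14 to 0.15 for Scn2a and from -0.30 to 0.30 for Scn3a. Between the fractions Scn2b was -0.10 with DESeq2 size factors, -0.10 with the DESeq2 test, -0.19 with voom and -0.011 without those numbers, and without 1 library from -0.16 to 0.36. There Scn1a ran from -0.86 to 0.0018 and Scn2a from -0.42 to 0.027. In alpha subunit shares of NeuN-negative nuclei, differences without those numbers were -0.65 for Scn1a and -0.85 percentage points for Scn2a, and Scn3a ran from -0.33 to 1.94 without 1 library. Against Rbfox3 the ratios of Scn1a and Scn2a were 0.45 and 0.27.

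Whether numbers 1 to 5 pair the fractions was checked by correlating deviations from the group means. Same-numbered libraries correlated at 0.192 to 0.625 in healthy and 0.0631 to 0.308 in EAE mice with a prior count of 0.5, and at 0.282 to 0.703 and 0.118 to 0.389 with a prior count of 2. The lowest EAE value thus lay below or above the limit of 0.1 set for pairing, depending on the prior count, and the numbers were not taken as pairs. By the first, 5 of 5 EAE and 4 of 5 healthy libraries correlated best with their own number. With the replicate block Scn9a stood at 1.02 (edgeR, adjusted p = 0.101) in NeuN-positive nuclei. There the block matched EAE and healthy libraries by number alone, and such libraries correlated at -0.277 to 0.157 (prior count of 0.5). That loss of the call is thus no result about pairing of the fractions. The 5 libraries a group and, in the NeuN-negative fraction, as few as 23 counts of a member in a library limit the precision.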
